A study of Mus musculus with 124 samples.

Results

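Monocytes sorted from the blood of CD1 mice were compared between 2 treatment labels, CBM and PBS, in 18 of the 85 samples of the series. The 13 CBM samples were taken by their label and their numbers 1 to 13. The 5 PBS samples were those titled JS3, JS6, JS9, JS11 and JS14, each the sum of 2 libraries, and 3 other PBS monocyte samples were left out because their sex-linked genes or cell type markers went against their labels. The labels call the source peripheral blood mononuclear cells, sorted by flow cytometry into T cells, B cells and monocytes at postnatal days 35 to 40, and describe offspring of a prenatal alcohol model, of a maternal diabetes model made with streptozotocin (STZ), and of controls. They do not say what CBM stands for, and it is used here as a label only. Samples labelled EtOH, from mice exposed to ethanol before birth, serve below as further samples of batch 1. CBM monocytes came from 8 females and 5 males of batch 2, and PBS monocytes came from 2 females and 3 males of batch 1. Treatment and batch therefore cannot be told apart within monocytes. T cells (11 CBM and 4 PBS samples) and B cells (13 CBM and 5 PBS samples) carry the same treatment labels and the same batches, and served to set apart what monocytes showed beyond the difference that all 3 cell types shared.

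Blood monocytes are short-lived myeloid cells that leave the bone marrow, patrol vessels or enter tissue, and turn into macrophages or dendritic cells. Mouse monocytes are usually divided into classical cells, rich in Ly6c2 and Ccr2, which enter inflamed tissue, and nonclassical cells, rich in Cx3cr1 and Nr4a1, which patrol the endothelium. They sense microbes through Toll-like receptors and CD14, respond to complement through C5a receptors, and release interleukin-1β and chemokines. In blood they also bind platelets, so platelet RNA can travel with them in a sort.

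Total counts, in units of 1000000, were between 2.1 and 7.33 in CBM monocytes (median 6.05) and between 1.33 and 4.86 in PBS monocytes (median 4.7). The summed counts per 1000000 counts (CPM) of 15 monocyte markers, Lyz2, Csf1r and Cd68 among them, lay between 35653 and 54255 in CBM monocytes and between 31043 and 48263 in PBS monocytes, so both groups carried the defining markers and their ranges overlapped. 3 samples stood apart. CBM sample 10 and PBS sample JS14 had the lowest totals of their groups and the most reads in receptor genes of smell and of the vomeronasal organ, silent in most blood cells (3772 CPM in CBM 10 and 2956 CPM in JS14, against group medians of 293.8 CPM in CBM and 104.6 CPM in PBS). CBM sample 11 had 4.11% of its counts in mitochondrial genes, against a CBM median of 0.67%. Neutrophil, natural killer cell and B cell markers were present in both groups: summed neutrophil markers reached 66785 CPM in CBM monocytes and 24134 CPM in PBS monocytes, with medians of 13367 and 17332 CPM. Nothing in the labels says which PBS samples came from the same animal, and p-values measure the spread between these samples.

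The first question was how far monocytes differed between the 2 labels at all. Of 15270 genes tested, 3044 passed (19.9%), 1308 of them higher (8.57%) and 1736 lower (11.4%) in CBM monocytes. A gene passed here when its edgeR quasi-likelihood p, adjusted by Benjamini and Hochberg over all genes tested, was under 0.05. The median log2 difference over genes was 0.14, and differences below are on the log2 scale, CBM minus PBS, with the standard error (SE) of the fit. The balance of higher and lower calls turned when 1 CBM sample was left out: without CBM 10, 1777 were higher and 1537 lower, without CBM 5, 1525 and 1348, and without CBM 1, 2, 7, 8 or 9 more were higher too. Without CBM 10, CBM 11 and JS14 together, an alternative chosen after their values were seen, 4700 genes passed.

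Most of this difference was shared with the lymphocytes. Of the 3044 genes, 2654 (87.2%) had the same sign in both lymphocyte types, and 1528 (50.2%) also passed the test in both, 441 higher and 1087 lower (2.89% and 7.12% of all genes). In T cells 29.5% and in B cells 38.9% of 22923 genes passed. Across 9669 genes of at least 10 CPM on average, the monocyte difference correlated with that of T cells (Pearson's r = 0.67) and of B cells (r = 0.75). Genes are not independent replicates, and the 3 differences share the same 2 batches, so these values are a description only.

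The plainest of the shared genes fell in all 3 cell types. Plk3, a stress-activated kinase of the Polo family, lay between 4.4 and 20.5 CPM in CBM monocytes (median 11.2), against 253, 472, 581, 720 and 420 CPM in PBS monocytes (samples JS3, JS6, JS9, JS11 and JS14, the order used throughout). The groups were far apart, as they were for 6.04% of all genes in either direction and for 3.16% with CBM below, and Plk3 was lower by a log2 of -5.75 ± 0.33 (SE) in monocytes, -4.27 in T cells and -3.86 in B cells. Ythdf1, a reader of m6A-modified mRNA, ranged between 7.44 and 34.7 CPM in CBM monocytes, against 91.1, 96.3, 111, 95.1 and 99.5 CPM in PBS monocytes. Its differences were -2.82, -3.47 and -3.11 in monocytes, T cells and B cells. Morf4l1, a subunit of chromatin-modifying complexes, and Ppp6r1, a regulatory subunit of protein phosphatase 6, fell by 1.52 and 2.32 on the log2 scale in monocytes, and every CBM sample lay below every PBS sample for both.

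Cebpb, the C/EBP factor that drives emergency myelopoiesis and the survival of nonclassical monocytes, belonged to the same shared set. It lay between 27.1 and 625 CPM in CBM monocytes (median 50.9), against 2366, 3256, 2554, 3194 and 1727 CPM in PBS monocytes. Its difference was -5.02 in monocytes, -5.82 in T cells and -6.25 in B cells. The interaction, explained below, did not pass (edgeR adjusted p = 0.294). The shared genes that rose included Rps2, a protein of the small ribosomal subunit (2.3 ± 0.18), Itpripl1, a membrane protein related to a binding partner of the IP3 receptor (3.04 ± 0.21), Sgsh, a lysosomal sulfamidase (1.73 ± 0.22), Zc3h4, a factor that restrains non-coding transcription (2.06 ± 0.27), and Dpysl2, a microtubule-associated protein (2 ± 0.29). Each was above every PBS sample in all 13 CBM samples, and each passed in T cells and B cells too.

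To set the monocytes apart, each gene's monocyte difference was compared with the mean of its T cell and B cell differences in 1 joint fit of all 3 cell types. This interaction is called the excess below. A batch effect equal on the log scale in all 3 cell types cancels in it, and one that differs by cell type does not. Which genes carry such an effect was not tested. A negative excess means that CBM monocytes were lower, relative to PBS, than the lymphocytes were. Of 22923 genes tested, 494 passed (2.16%), 89 with a positive excess (0.388%) and 405 with a negative one (1.77%). Genes past both the monocyte test and the interaction with the same sign numbered 196 of 15269 (1.28%), 32 higher (0.21%) and 164 lower (1.07%) in CBM monocytes. More of the genes past the interaction had a negative excess, and the median excess was -0.23 over the genes tested and -0.01 over the genes in both fits. Among genes of at least 1 CPM in every group, 127 had a positive and 270 a negative excess past the test (32% positive), with a median of 0.05. With PBS and EtOH samples together as reference, 43.4% of the interaction calls had a positive excess, against 18% here.

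**Figure D1:**
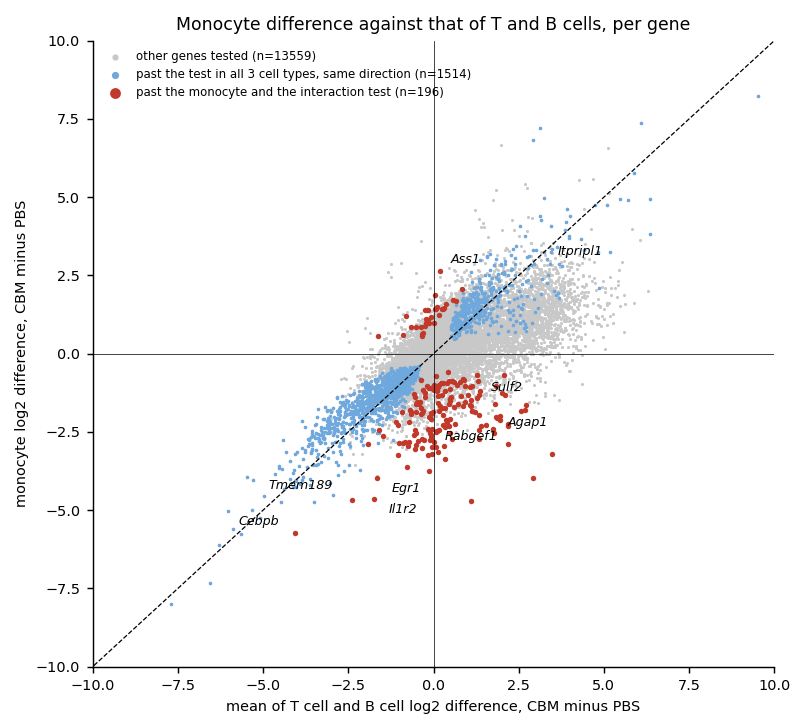
Monocyte log2 difference (CBM minus PBS, vertical axis) against the mean of the T cell and B cell log2 differences (horizontal axis), 1 point per gene; the dashed line marks equal differences. The 196 genes past both tests lie off the line, 164 below the horizontal axis and 32 above it, while the genes shared by all 3 cell types run along the line.

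Where T and B cells also changed or carried monocyte RNA, the excess moves with it. The summed monocyte markers had a median of 1544 CPM in CBM T cells and 688 CPM in PBS T cells, and of 2985 CPM in CBM B cells and 2236 CPM in PBS B cells. In T cells 7 of the 15 monocyte markers were higher in CBM, where 17.8% of all genes were. The median excess of the 15 markers was -1.14, with none past the interaction. The part of this RNA in the excess of other genes was not tested.

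Rabgef1 had the lowest interaction p among the named genes. It encodes Rabex-5, an exchange factor for Rab5 on early endosomes that dampens signalling from surface receptors. Rabgef1 lay between 16.2 and 45.2 CPM in CBM monocytes (median 32.5), against 75.7, 186, 254, 179 and 134 CPM in PBS monocytes. All 13 CBM samples were below all 5 PBS samples. The difference was -2.54 ± 0.2 (edgeR adjusted p = 3.27e-08), while T cells and B cells each differed by -0.1. The joint fit, which estimates the monocyte difference anew, gave an excess of -2.54 ± 0.23 (edgeR adjusted p = 4.46e-11). The medians were 42.7 CPM in CBM T cells, 36.7 CPM in PBS T cells, 64.3 CPM in CBM B cells and 56 CPM in PBS B cells.

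Btbd19, a BTB domain gene, behaved alike in the counts. It lay between 4.67 and 21.5 CPM in CBM monocytes (median 9.42), against 39.4, 46.3, 45.1, 56.1 and 43 CPM in PBS monocytes, again with no overlap. The excess was -2.43 ± 0.29 (edgeR adjusted p = 1.32e-07), with differences of -0.32 in T cells and 0.03 in B cells. Btbd19 (chr4:117119219-117125725, minus strand, GRCm38) lies just downstream of Plk3 (chr4:117128655-117133963, minus strand), which fell in all 3 cell types. Whether reads running on from Plk3 add to Btbd19 was not tested. Plk3 itself had an excess of -1.82 ± 0.45 (edgeR adjusted p = 0.0162), which did not pass without JS11. Nor did it pass against T cells alone or against B cells alone.

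Wee1, the kinase that holds back entry into mitosis and in many tissues follows the circadian clock, lay between 1.65 and 11.6 CPM in CBM monocytes (median 6.18), against 11.9, 51, 48.6, 10 and 28.6 CPM in PBS monocytes. The groups overlapped at JS11, the lowest PBS sample, which 12 of 13 CBM samples lay below. The monocyte difference was -2.43 ± 0.39 and the excess -2.71 ± 0.45 (edgeR adjusted p = 0.000217), with 0.37 in T cells and -0.03 in B cells.

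Camkk1, a calcium and calmodulin dependent kinase that activates other CaM kinases, lay between 0 and 25.9 CPM in CBM monocytes (median 10.2), against 44.7, 97.5, 33.1, 74.3 and 32.4 CPM in PBS monocytes. No sample of the 2 groups overlapped, and the excess was -3.13 ± 0.48 (edgeR adjusted p = 4.09e-05). Tmcc3, a membrane protein of the endoplasmic reticulum, lay between 2.94 and 33.3 CPM in CBM monocytes (median 12.3), against 37.4, 54.9, 63.9, 52.7 and 31.7 CPM in PBS monocytes. Here 1 CBM sample reached above JS14, the shallowest PBS sample. Tmcc3 differed by -2.3 ± 0.34 in monocytes, 0.51 in T cells and 0.37 in B cells, an excess of -2.91 ± 0.33 (edgeR adjusted p = 4.84e-08).

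Cass4, a scaffold of the Cas family at focal adhesions that acts in adhesion and spreading, showed one of the larger drops. It lay between 3.97 and 55.2 CPM in CBM monocytes (median 20.2), against 144, 199, 219, 297 and 146 CPM in PBS monocytes, without overlap. The difference was -3.22 ± 0.37 and the excess -3.3 ± 0.5 (edgeR adjusted p = 2.74e-05). Cass4 was low in the lymphocytes, with means of 4.12 CPM in CBM T cells, 1.88 CPM in PBS T cells, 7.05 CPM in CBM B cells and 10.1 CPM in PBS B cells.

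Trp53inp1 and Slamf1 were each higher in 1 of the 2 lymphocyte types, Trp53inp1 by 0.7 in T cells and Slamf1 by 1.18 in B cells. Trp53inp1, a p53 target that takes part in stress-induced cell death and autophagy, lay between 40.7 and 112 CPM in CBM monocytes (median 64.1), against 106, 231, 83, 185 and 149 CPM in PBS monocytes. Slamf1 (CD150), a receptor on immune cells that also binds bacteria in phagocytes, lay between 1.32 and 14.1 CPM in CBM monocytes (median 4.93), against 13, 17.3, 56.2, 40.8 and 9.8 CPM in PBS monocytes. The groups of Slamf1 overlapped at JS14 and JS3, and 8 of 13 CBM samples were below every PBS sample. The excess was -1.96 ± 0.28 for Trp53inp1 (edgeR adjusted p = 8.23e-06) and -2.72 ± 0.45 for Slamf1 (edgeR adjusted p = 0.000208). Against T cells alone the excess of Slamf1 missed the threshold (edgeR adjusted p = 0.0972). With PBS and EtOH samples together as reference the excess of Trp53inp1 was -0.99 and missed the threshold (edgeR adjusted p = 0.0584).

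Tmem189, a plasmanylethanolamine desaturase that makes plasmalogens, was the most abundant of the 12 lower genes in PBS monocytes. It lay between 21 and 83.6 CPM in CBM monocytes, against 1110, 1425, 1210, 1540 and 775 CPM in PBS monocytes. Every CBM sample was far below every PBS sample, and the difference was -4.69 ± 0.23, against -1.98 in T cells and -2.81 in B cells. Its annotated span (chr2:167642608-167689822, minus strand, GRCm38) overlaps Cebpb (chr2:167688915-167690418, plus strand), and the labels give no strand for the counts, so reads of Cebpb and Tmem189 cannot be told apart where they overlap. Cebpb itself had a positive excess that did not pass (1.12 ± 0.61).

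**Figure D2:**
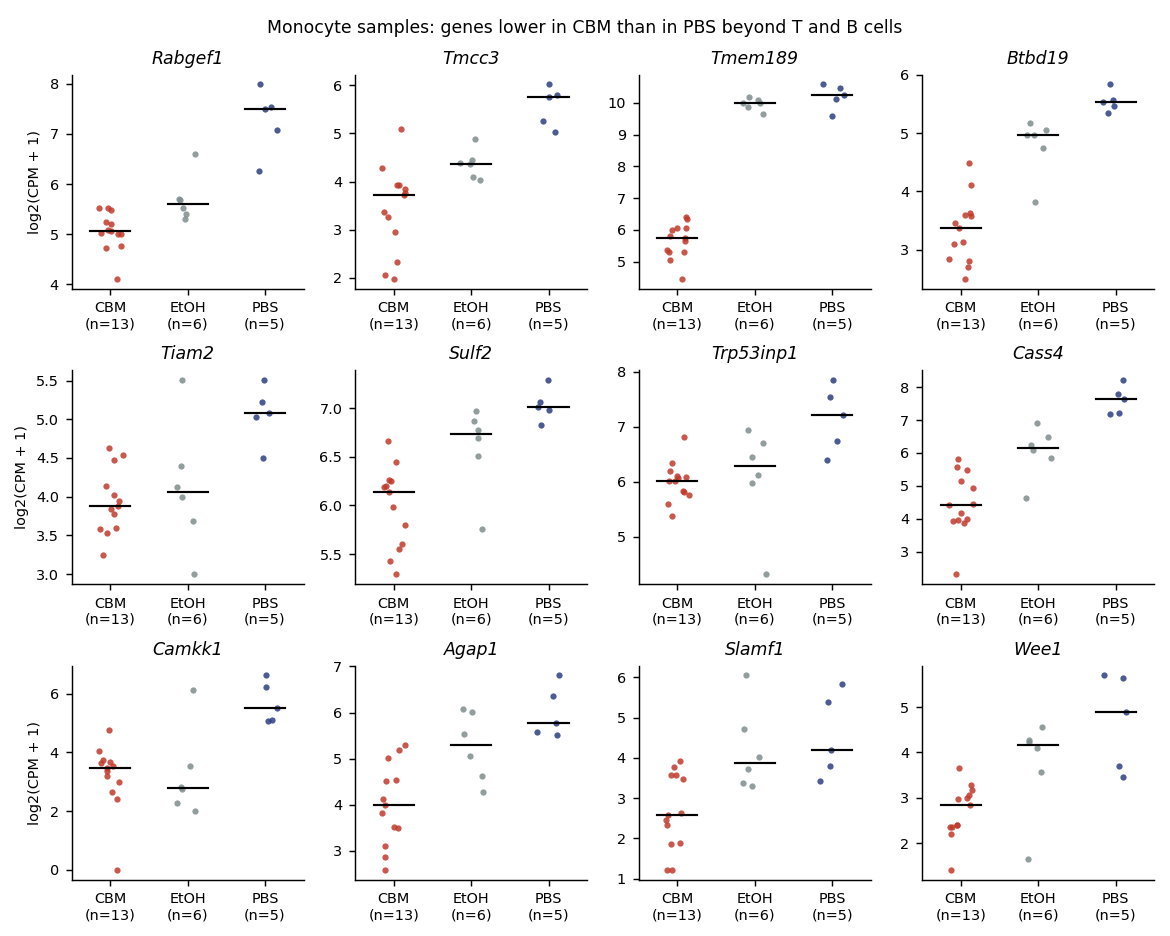
log2(CPM + 1) of the 12 genes lower in CBM monocytes with the lowest interaction p, 1 point per sample, for 13 CBM, 6 EtOH and 5 PBS monocyte samples; bars are medians. In 7 of the 12 genes no CBM sample reaches a PBS sample, as in 45 of the 116 genes they were drawn from and 3.16% of all genes; the genes were chosen for their difference, so this count is a description.

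In the other 3 of the 12, and in Lhx1 and Dmxl2, CBM lymphocytes were higher where CBM monocytes were lower. Agap1, an Arf GTPase activator of endosomal traffic, lay between 5.01 and 38 CPM in CBM monocytes (median 14.9), against 53.6, 81.7, 44.8, 111 and 46.7 CPM in PBS monocytes. Its differences were -2.07 ± 0.39 in monocytes, 1.92 in T cells and 1.79 in B cells. Tiam2, a Rac exchange factor, differed by -1.32 ± 0.22 in monocytes, 1.56 in T cells and 1.11 in B cells. Sulf2, an extracellular sulfatase that trims heparan sulfate, was below every PBS sample in all 13 CBM samples (38.2 to 101 CPM in CBM, against 125, 128, 155, 112 and 133 CPM in PBS). Its excess was -2.66 ± 0.34 (edgeR adjusted p = 1.01e-06), with 0.72 in T cells, which did not pass, and 2 in B cells. The lymphocyte levels were low: Agap1 averaged 5.97 CPM in CBM T cells, against 1.19 CPM in PBS T cells, and Lhx1, a LIM homeobox gene, averaged 1.37 CPM in CBM T cells, against 0.0937 CPM in PBS T cells. Lhx1 fell by 1.81 and Dmxl2, a regulator of vesicle acidification, by 1.04 on the log2 scale in monocytes. The monocyte call of Dmxl2 was lost without any 1 of CBM 1, CBM 7, CBM 9, JS6 and JS11.

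Opposed genes with higher monocytes were Ifngr2, the signalling chain of the interferon-γ receptor, and Eif2a, a translation initiation factor. Ifngr2 lay between 199 and 309 CPM in CBM monocytes (median 263), against 208, 160, 143, 148 and 119 CPM in PBS monocytes. Most CBM samples were above the whole PBS range, while in T cells the means were 63.2 CPM in CBM and 302 CPM in PBS. The difference was 0.57 ± 0.2 in monocytes (edgeR adjusted p = 0.0456), -2.51 in T cells and -0.75 in B cells. The excess was 2.06 ± 0.28 (edgeR adjusted p = 3.83e-06). Eif2a was above every PBS sample in all 13 CBM monocyte samples (21.2 to 41.5 CPM in CBM, against 17.4, 14.6, 20.5, 18.9 and 20.4 CPM in PBS), with an excess of 1.36 ± 0.25 (edgeR adjusted p = 0.000885). The monocyte call of Ifngr2 was lost without any 1 of CBM 3, CBM 12, JS6, JS9, JS11 and JS14, and that of Eif2a without any 1 of JS3, JS6, JS11 and JS14. All 3 calls, in monocytes and in both lymphocytes, passed for 7 genes (0.0458%), 1 of them a predicted gene.

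Genes higher in CBM monocytes beyond the lymphocytes were fewer, 32 against 164 lower. Chrnb2, a nicotinic acetylcholine receptor subunit better known in neurons, lay between 28.7 and 60.4 CPM in CBM monocytes (median 36.6), against 12.1, 10.9, 10.3, 10 and 12.1 CPM in PBS monocytes. The PBS samples lay close together and far below all CBM samples. The difference was 1.69 ± 0.18 in monocytes, but T cells (0.69) and B cells (0.62) rose as well, and the excess was 0.89 ± 0.21 (edgeR adjusted p = 0.012).

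Atad2, an ATPase that reads acetylated chromatin and marks cycling cells, lay between 29.9 and 59.1 CPM in CBM monocytes (median 43.2), against 15.5, 11.3, 13.2, 12.3 and 22.6 CPM in PBS monocytes, with no overlap. Ppp1r8, a nuclear inhibitor of protein phosphatase 1, lay between 19.9 and 37.8 CPM in CBM monocytes, against 10.2, 8.64, 11.9, 8.21 and 18.8 CPM in PBS monocytes, again apart. Their excess was 1.08 ± 0.25 (edgeR adjusted p = 0.00974) and 0.97 ± 0.19 (edgeR adjusted p = 0.00181). Snrpf, a core protein of the spliceosome, Dohh, the enzyme that completes hypusine on eIF5A, and Cenpt, a kinetochore protein, were also above every PBS sample in all 13 CBM samples, with monocyte differences of 1.42, 1.38 and 1.42. Dnase2a, the lysosomal nuclease that degrades engulfed DNA, did so too (18.5 to 54.2 CPM in CBM, against 11.3, 9.26, 13.8, 15 and 8.29 CPM in PBS), and its excess was 1.02 ± 0.27 (edgeR adjusted p = 0.0258).

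Ass1, the argininosuccinate synthase that recycles citrulline to arginine, had the largest monocyte difference of the 12 higher genes and the widest spread. It lay between 5.52 and 196 CPM in CBM monocytes (median 40.6), against 5.32, 9.67, 13.2, 6.16 and 11.3 CPM in PBS monocytes. The lowest CBM samples lay within the PBS range and 11 of 13 were above it. The difference was 2.65 ± 0.76 (edgeR adjusted p = 0.0171) and the excess 2.62 ± 0.67 (edgeR adjusted p = 0.0236), and the monocyte call was lost without CBM 12, JS6 or JS9, the excess without JS6 or JS11. Acp5, tartrate-resistant acid phosphatase, lay between 66.3 and 293 CPM in CBM monocytes, against 122, 46.3, 45.1, 43.5 and 114 CPM in PBS monocytes, and its difference of 1.38 was 0.57 with the EtOH samples in the reference (edgeR adjusted p = 0.124). Rhob, a small GTPase of endosomes, Ccdc125, a coiled-coil protein linked to cell migration, and Nup210, a nuclear pore membrane protein, differed by 1.21, 1.08 and 1.16. CBM and PBS samples of Rhob overlapped, and its call was lost without JS3, JS9 or JS11. The excess did not pass without JS6, JS9 or JS11 for Nup210, without JS11 or JS14 for Snrpf, without JS6 or JS14 for Dnase2a, and without JS3, JS6, JS11 or JS14 for Cenpt. In females only, the excess of none of the 12 higher genes passed, while that of all 12 lower genes did. Of the 12 higher genes, only Rhob and Ccdc125 kept it both against T cells alone and against B cells alone. In limma voom with the CBM number as a block, the excess of Chrnb2, Nup210, Ass1, Snrpf, Dnase2a and Cenpt did not pass.

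**Figure D3:**
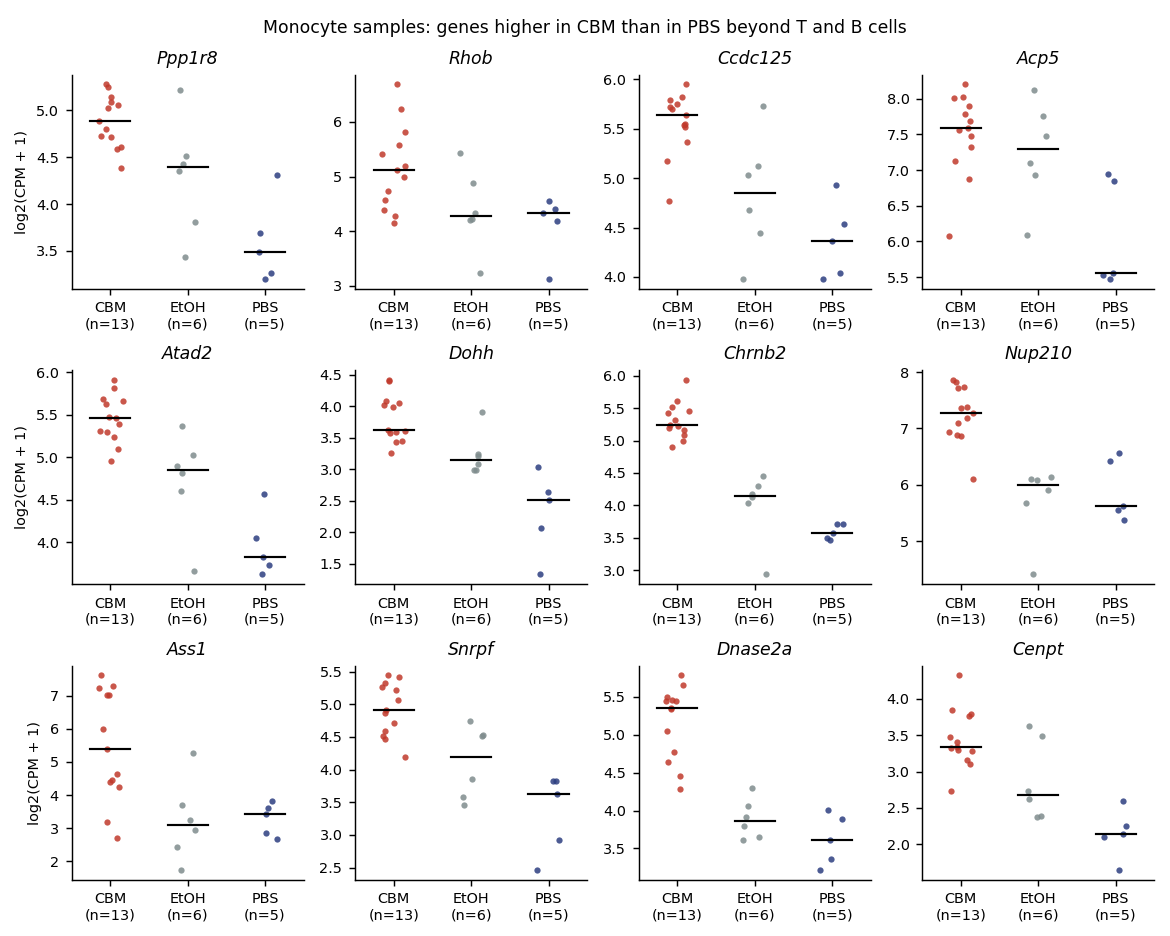
log2(CPM + 1) of the 12 genes higher in CBM monocytes with the lowest interaction p, 1 point per sample, for 13 CBM, 6 EtOH and 5 PBS monocyte samples; bars are medians. In 7 of the 12 genes all CBM samples lie above all PBS samples, as in 11 of the 17 genes they were drawn from and 2.88% of all genes, and Ass1 has the widest CBM spread, 5.52 to 196 CPM.

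EtOH monocytes, 6 samples of mice exposed to ethanol before birth, were sequenced in batch 1 with the PBS samples and serve here as further samples of that batch. Only JS55 among them was labelled male, and the others were labelled female. An ethanol dose and embryonic days of exposure are given in the labels of EtOH samples only. Rabgef1 lay between 38.2 and 96.5 CPM in EtOH monocytes (median 47.5), nearer to CBM than to PBS, whereas Tmem189 lay between 802 and 1165 CPM, near PBS. Camkk1 lay between 3.05 and 68.7 CPM, and all EtOH samples but the highest were inside the CBM range. The EtOH mean lay between the CBM and PBS means for 11 of the 12 higher and all 12 lower genes. With PBS and EtOH together as reference, 10 of the 12 higher and 11 of the 12 lower genes passed both tests. In all, 362 genes passed both, of which 137 were among the 196.

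Platelet genes were lower in CBM monocytes. Of 10 members, among them Pf4 and Ppbp, chemokines of platelet granules, the surface receptors Itga2b, Itgb3, Gp1bb, Gp9 and Gp6, Treml1, and Tubb1, the platelet tubulin, 7 were lower and none higher, where 11.4% of all genes were lower. Their median was -1.77, against 0.14 over all genes. By the interaction 5 were lower, where 1.77% of all genes were, with a median excess of -2.26. None passed in T cells or B cells. Their summed level lay between 78.3 and 1003 CPM in CBM monocytes (median 261.6) and between 399.5 and 2349 CPM in PBS monocytes (median 648.6), and reached its highest value in JS9.

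Itga2b, the αIIb chain of the fibrinogen receptor, lay between 21.8 and 154 CPM in CBM monocytes (median 48.8), against 185, 125, 577, 340 and 95.7 CPM in PBS monocytes. The groups overlapped at JS14 and JS6, and 11 of 13 CBM samples were below every PBS sample. The difference was -2.61 ± 0.4 (edgeR adjusted p = 9.45e-05) and the excess -2.2 ± 0.59 (edgeR adjusted p = 0.0308). Gp1bb, part of the von Willebrand factor receptor, differed by -3.06 ± 0.6, Tubb1 by -2.47 ± 0.52 and Gp6, the collagen receptor, by -1.6 ± 0.36. Ppbp and Treml1, named after their values were seen, differed by -1.83 and -1.71. The count rested on JS9: without it 3 members were lower in monocytes and none by the interaction, with medians of -1.05 and -1.64, and Gp6 missed the threshold in monocytes (edgeR adjusted p = 0.0787). Without JS11 the excess of Itga2b and of Tubb1 missed it too. Against T cells alone and against B cells alone, the excess of Itga2b, Tubb1 and Gp6 did not pass. Without the 3 samples that stand apart 9 members were lower in monocytes and 8 by the interaction. In bulk samples, fewer platelets bound to the sorted cells and less RNA per platelet or cell cannot be told apart.

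Since these genes moved together, the promoters of the list are shown where RefSeq (GRCm38.p6) gave one, for 8 of 10 members. The 250 bases before the start were searched on both strands for GGAAGT, the core bound by ETS factors such as FLI1, and AGATAA, bound by GATA1, both known regulators of megakaryocytes. GGAAGT or its reverse ACTTCC was found for Gp9, Itga2b, Pf4 and Ppbp, 4 of 8, and in 19.7% of 32851 promoters. AGATAA or TTATCT was found for Gp6, 1 of 8, and in 9.99% of promoters. The 3 matches nearest the start are shown in windows of 80 bases, 5′ to 3′ on the strand of the gene, with the match in capitals: Itga2b (chr11:102469884-102469963, minus strand), Pf4 (chr5:90772355-90772434, plus strand) and Ppbp (chr5:90768431-90768510, plus strand).
Itga2b: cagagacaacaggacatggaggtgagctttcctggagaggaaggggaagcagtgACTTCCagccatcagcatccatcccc
Pf4: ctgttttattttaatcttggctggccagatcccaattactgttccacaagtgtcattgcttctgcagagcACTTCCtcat
Ppbp: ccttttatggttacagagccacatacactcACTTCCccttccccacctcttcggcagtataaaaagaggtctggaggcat
A match is a description of these letters and not a measured site.

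**Figure D4:**
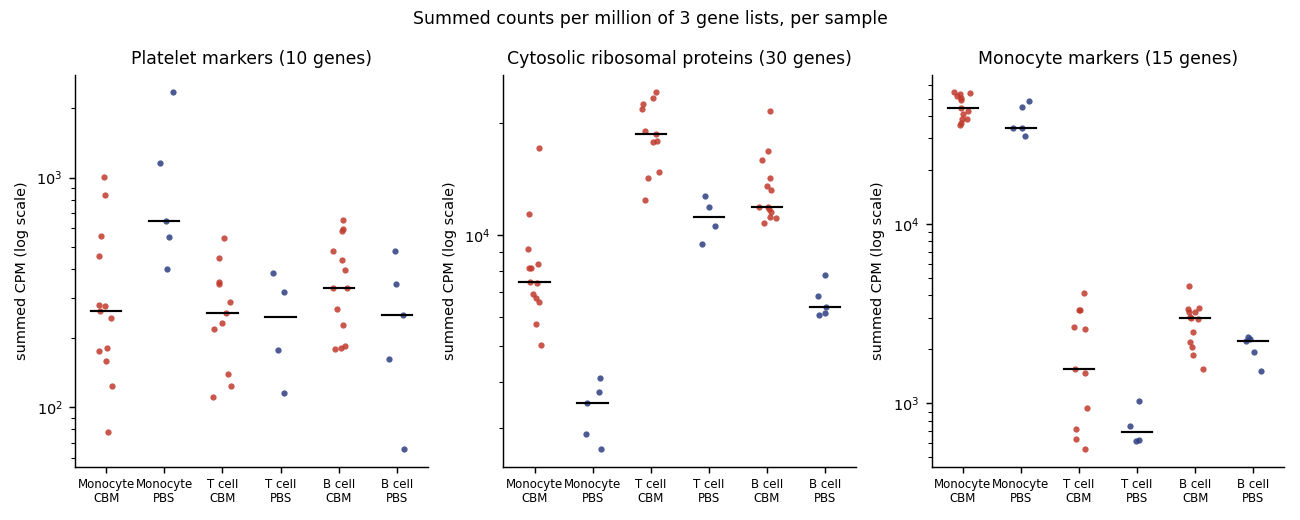
Summed CPM per sample (log axis) of 10 platelet, 30 cytosolic ribosomal protein and 15 monocyte genes in CBM and PBS samples of the 3 cell types; bars are medians. Platelet sums are lower in CBM monocytes with overlap, ribosomal protein sums are above all PBS samples in all CBM monocytes, and monocyte marker sums are alike in monocytes and higher in CBM T cells (median 1544 CPM) than in PBS T cells (688 CPM).

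Ribosomal protein genes rose together in CBM monocytes. Of 30 tested, 28 were higher and none lower in CBM monocytes, with a median of 1.45, and for 25 all CBM samples were above all PBS samples, which held for 2.88% of all genes. In T cells 10 were higher and 1 lower, and in B cells 20 were higher and 1 lower, where 17.8% and 25.8% of all genes were higher. No member passed the interaction, and the median excess was 0.54. Rpsa, the laminin receptor and small subunit protein, lay between 155 and 414 CPM in CBM monocytes (median 226), against 67.5, 53.1, 68.7, 57.4 and 39.2 CPM in PBS monocytes. Rpl7 (1.39 ± 0.22) and Rpl19 (1.55 ± 0.25) of the large subunit were also fully apart. Mitochondrially encoded genes ran the same way, with 5 of 10 higher (mt-Nd1 by 1.09, mt-Nd2 by 1.92), none past the interaction. Over all genes, 8.57% were higher in monocytes. Near-identical copies make counts of ribosomal protein genes uncertain.

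Immediate early genes, the first to respond when a cell is stimulated, were lower in CBM monocytes for 9 of 20, against 11.4% of all genes, and none was higher. Egr1, a zinc-finger factor of that kind, lay between 16.4 and 235 CPM in CBM monocytes (median 72.4), against 941, 1191, 704, 1667 and 652 CPM in PBS monocytes. The groups did not overlap. Egr1 differed by -3.98 ± 0.43 in monocytes, -2.22 in T cells and -1.07 in B cells, with an excess of -2.38 ± 0.42 (edgeR adjusted p = 0.000573). Egr2 differed by -2.87 ± 0.32 in monocytes, with an excess of -1.98 ± 0.41 (edgeR adjusted p = 0.00307), and Egr3, too low for the monocyte test, had an excess of -2.92 (edgeR adjusted p = 0.0173). Against T cells alone and in females only, the excess of Egr1 and of Egr2 did not pass. That of Egr2 did not pass after thinning to the shallowest sample either. Jund, which pairs with Fos proteins in AP-1, fell in all 3 cell types (-3.59, -4.37 and -3.5) and had no excess past the test. Fos and Jun themselves differed by 0.36 and 0.45 in monocytes and did not pass. T cells had 12 and B cells 8 lower members, where 11.7% and 13.1% of all genes were lower.

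Clock genes gave a similar split. In monocytes 7 of 16 were lower, where 11.4% of all genes were, and none was higher, with a median of -0.63. Nr1d1 (REV-ERBα) and Per2, core repressors of the clock named after their values were seen, passed both tests. Nr1d1 lay between 0 and 3.97 CPM in CBM monocytes (median 0.661), against 4.89, 4.11, 16.6, 5.47 and 9.8 CPM in PBS monocytes. The level was low and the groups did not overlap. Its excess was -3.22 ± 0.71 (edgeR adjusted p = 0.00638), with 0.09 in T cells and 0.07 in B cells. The excess of Per2 was -1.97 ± 0.49 (edgeR adjusted p = 0.0186). Nr1d1 passed neither test without JS9, and Per2 did not pass the interaction without JS6 or JS11. Against B cells alone and in females only, the excess of neither gene passed. That of Per2 did not pass against T cells alone or with PBS and EtOH samples together as reference. Nfil3 (-1.87) and Bhlhe40 (-1.44), repressors tied to the clock, and Ciart (-2.25) were below every PBS sample in all CBM samples, without an excess past the test. Arntl and Clock, the activators, differed by -0.03 and -0.07. The labels give no hour of collection, and whether it differed between the groups was not tested.

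Glucocorticoid-responsive genes were lower in all 3 cell types: 7 of 13 in monocytes, 7 in T cells and 8 in B cells. None was higher. Over all genes, 11.4% were lower in monocytes, 11.7% in T cells and 13.1% in B cells. Fkbp5, which restrains the glucocorticoid receptor, lay between 4.63 and 23.7 CPM in CBM monocytes (median 9.2), against 71.1, 126, 31.9, 51.7 and 92.7 CPM in PBS monocytes. Klf9 differed by -3.27 in monocytes, -3.56 in T cells and -2.9 in B cells. Il1r2, the decoy receptor for interleukin-1 that glucocorticoids raise, was the member with an excess. It lay between 20.6 and 470 CPM in CBM monocytes (median 55.7), against 993, 2260, 1652, 2128 and 957 CPM in PBS monocytes, without overlap. The difference was -4.64 ± 0.53 and the excess -2.87 ± 0.69 (edgeR adjusted p = 0.0143), which was not past the test without JS11. Nor did the excess pass against B cells alone or in females only.

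**Figure D5:**
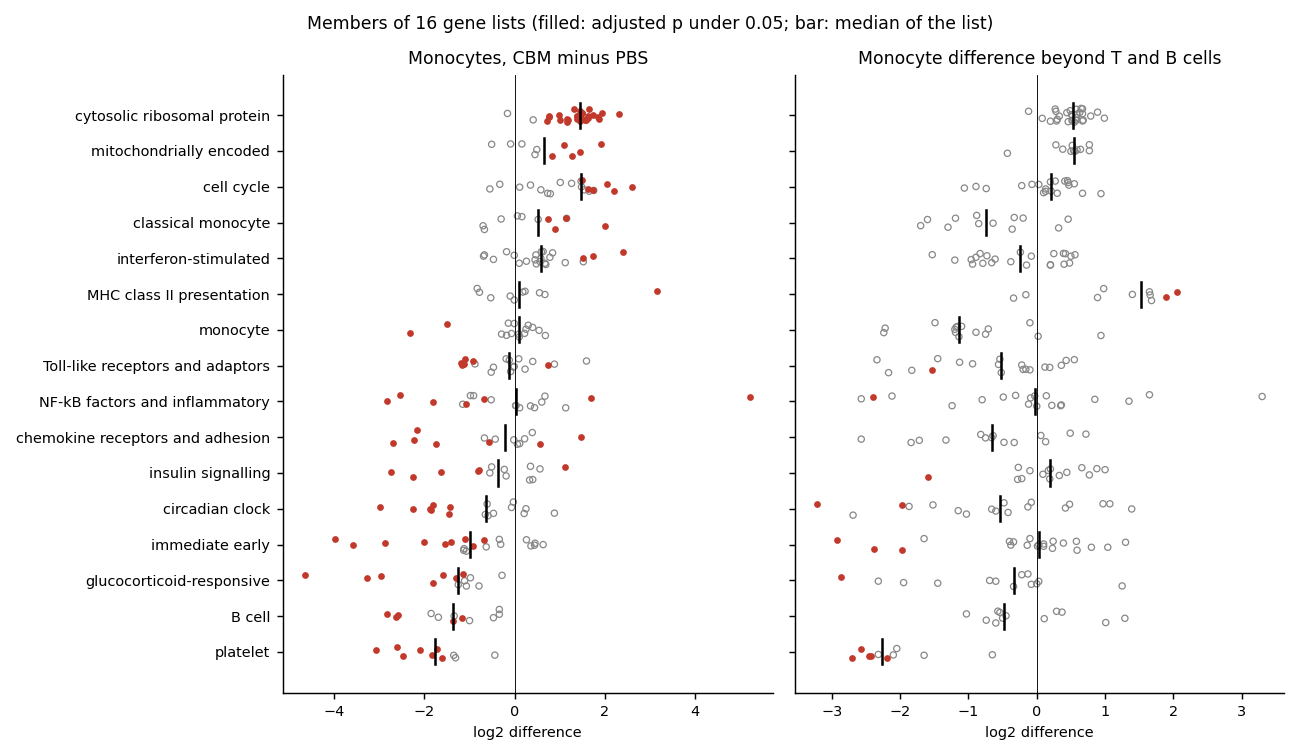
log2 difference, CBM minus PBS, of each member of 16 gene lists in monocytes (left) and the monocyte difference beyond the mean of T and B cells (right); filled points have an adjusted p under 0.05 and bars are list medians. Ribosomal protein genes sit right of 0 in monocytes (median 1.45) with no filled point in the right panel, and platelet genes sit left of 0 in both panels (medians -1.77 and -2.26).

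Inflammatory genes of the monocyte program were mixed. Of 19 NF-kB factors and targets, 5 were lower (Il1b, Nfkbiz, Cxcl2, Ptgs2 and Birc3) and 2 higher (Icam1 and Il10). Over all genes, 11.4% were lower and 8.57% higher. Il1b, which encodes interleukin-1β, lay between 649 and 3296 CPM in CBM monocytes (median 1458), against 4842, 6469, 3138, 5674 and 2908 CPM in PBS monocytes, with 12 of 13 CBM samples below every PBS sample. Its difference was -1.8 ± 0.32 in monocytes, 1.17 in T cells and -0.87 in B cells. The excess missed the threshold (-2.12 ± 0.65, edgeR adjusted p = 0.0648). Cxcl2, a neutrophil-attracting chemokine, differed by -2.55 ± 0.56. Il1rn, the interleukin-1 receptor antagonist, named after its values were seen, had an excess of -2.4 ± 0.6 (edgeR adjusted p = 0.0216) without passing in monocytes alone (-0.91). That excess did not pass against B cells alone or in females only. Tnf differed by 0.03.

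Some receptors for microbes were lower. Of 19 Toll-like receptors and adaptors, 5 were lower (Tlr2, Tlr8, Tlr13, Irak1 and Traf6) and 1 higher (Irak4), with a median of -0.12, and 11.4% of all genes were lower. Tlr13, the sensor of bacterial ribosomal RNA, lay between 157 and 442 CPM in CBM monocytes (median 371), against 697, 722, 668, 625 and 569 CPM in PBS monocytes, and all CBM samples were below all PBS samples. Cd14, the co-receptor for lipopolysaccharide, lay between 277 and 1573 CPM in CBM monocytes (median 670), against 1726, 3772, 3280, 3600 and 1686 CPM in PBS monocytes, also apart. Their excess was -1.83 (edgeR adjusted p = 0.0867) and -2.24 (edgeR adjusted p = 0.097). Of 14 Fc and complement receptor genes 2 were lower, near that share, with a median of 0.08. One was C5ar1, the C5a receptor, which differed by -1.95 ± 0.38, and its excess of -2.22 (edgeR adjusted p = 0.0487) did not pass under 22 of 36 alternatives, leaving out any 1 of 9 CBM or 3 PBS samples among them. Of 12 neutrophil markers, Csf3r (-1.66) and Cxcr2 (-1.72) were lower and Ly6g (1.9) was higher, with a median of 0.34. Over all genes, 11.4% were lower and 8.57% higher. S100a8 and S100a9 differed by 0.52 and 0.16. In a fit with terms for neutrophil and natural killer cell scores the monocyte differences were -2.12 for Cd14, -1.16 for Tlr13 and -1.74 for C5ar1.

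Chemokine receptors split. Ccr1 (-2.22), Cxcr4 (-2.17), Ccr7 (-2.7), S1pr1 and Cd44 were lower, and S1pr5 (1.47), which guides nonclassical monocytes out of the marrow, and Itga4 were higher, out of 14. Over all genes, 11.4% were lower and 8.57% higher in monocytes. The classical monocyte list had 4 of 11 higher, where 8.57% of all genes were, and none lower. Higher were Ly6c2 by 1.14 ± 0.31, Plac8 by 0.9, Fn1 by 0.73 and the coagulation factor F10 by 2.01. The count was between 0 and 6 over the alternatives: Plac8 was lost without JS11 or JS14, Fn1 without JS3, JS6, JS9 or JS11, and F10 without JS6 or JS9. Ccr2 differed by 0.06 and, of the nonclassical list, Cx3cr1 by 0.11 and Nr4a1 by -0.63, and none of these 3 passed. Of 15 nonclassical members Pou2f2 (1.15) was higher and Cd36 (-1.42) lower, and none of either list passed the interaction. Of the 15 general monocyte markers 2 were lower, Cd14 among them, and none was higher. Cell cycle genes were higher for 6 of 20 (Top2a by 2.05, Aurkb by 1.62) with a median of 1.47, none of them past the interaction. Over the alternatives between 1 and 16 were higher. The median of their summed level was 475.8 CPM in CBM, 489.7 CPM in EtOH and 255.9 CPM in PBS monocytes. In T cells 14 cell cycle genes were higher. The shares of all genes that were higher were 8.57% in monocytes and 17.8% in T cells.

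Of 10 class II presentation genes 1 passed in monocytes, where 19.9% of all genes did. H2-Eb1, the β chain of the class II molecule I-E, lay between 81.3 and 981 CPM in CBM monocytes (median 308), against 11.3, 12.6, 13.2, 106 and 70.1 CPM in PBS monocytes. The PBS samples fell into a low set of 3 and a higher pair, JS11 and JS14. H2-Eb1 also rose in T cells (2.01) and B cells (2.52), and H2-Aa, H2-Ab1 and Cd74 differed by 0.18, -0.1 and -0.01. H2-Ea-ps, the pseudogene of the I-E α chain, was chosen after its values were seen: it lay between 0 and 2.85 CPM in CBM monocytes, against 14.9, 12.6, 21.4, 175 and 131 CPM in PBS monocytes, high in the same pair. CD1 mice are outbred, so class II alleles can differ between animals, and which alleles these mice carried was not tested. Ciita (2.05) and H2-DMb1 (1.89) had a positive excess past the test, but in monocytes they differed by 0.67 and -0.78 without passing. In CBM T cells 7 of the 10 members and all 12 B cell markers were lower, where 11.7% of all genes were. The PBS T cell sample JS1 stood apart, with Cd79a at 623.9 CPM, against 15.5, 13.1 and 21.8 CPM in JS4, JS7 and JS12. Summed B cell markers had medians of 63.8 CPM in CBM T cells and 68.7 CPM in PBS T cells. The part of JS1 in these counts and in the excess of Ciita and H2-DMb1 was not tested. The excess of Ciita and of H2-DMb1 each missed the threshold without CBM 5, JS3 or JS6, among others.

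Interferon-stimulated genes were higher for 3 of 23, among them Cxcl10 (2.39) and Usp18 (1.52), a share near the 8.57% of all genes, and none passed the interaction. The call of Usp18 was lost without JS6, JS9 or JS11. In B cells 11 were higher, where 25.8% of all genes were. Of 12 B cell markers in the monocyte sort 5 were lower, against 11.4% of all genes, and of 13 T cell markers 1 was lower. Cd79a lay between 0.762 and 19 CPM in CBM monocytes, against 155, 13, 13.4, 8.43 and 127 CPM in PBS monocytes, with JS3 and JS14 well above the rest. Of 8 basophil and mast cell genes 3 were lower (Cpa3, Hdc and Gata2), against 11.4% of all genes. Cpa3, a mast cell and basophil protease, was at most 4.75 CPM in CBM monocytes, against 28.5, 2.06, 5.45, 10 and 11.3 CPM in PBS monocytes. The list did not move as a whole: Prss34 reached higher values in CBM monocytes (0 to 74.7 CPM) than in PBS monocytes (0.851, 1.44, 1.47, 0.912 and 3.77 CPM) without passing.

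Metabolic genes changed in a few places. Of the insulin pathway, 5 of 14 were lower, against 11.4% of all genes, and 1, Insr, higher. Akt1, a central kinase of the pathway, lay between 61.4 and 216 CPM in CBM monocytes (median 91.1), against 500, 452, 479, 572 and 409 CPM in PBS monocytes. Akt1 (-2.26), Irs2 (-2.74) and Foxo1 (-1.63) fell in T cells and B cells as well, by more on the log2 scale, and none had an excess past the test. Slc2a3 (GLUT3), a glucose transporter of leukocytes, had an excess of -1.42 ± 0.36 (edgeR adjusted p = 0.0234) and a monocyte difference of -1.2, while Hk2, a hexokinase, rose by 1.55. The excess of Slc2a3 did not pass without JS11, against B cells alone or in females only. Of 18 cholesterol synthesis genes 2 were higher, Fdft1 (1.5) and Mvd (1.15), near the 8.57% of all genes, with a median of 0.23. Of 11 cholesterol efflux and LXR genes 3 were higher, Abcg1 (1.45), Nr1h3 (1.88) and Scd2 (1.89), with a median of -0.02. No member of either list was lower or had an excess past the test. The call of Nr1h3 was lost without CBM 12 or any 1 PBS sample, and that of Mvd without JS6 or JS9. None of the 7 phagocyte oxidase genes passed, where 19.9% of all genes did, and Cybb, the catalytic subunit of the oxidase, differed by 0.22 ± 0.23. Of 22 lysosome and phagocytosis genes, Lamp1 (-2.08), Ctsl (-1.32) and Cd36 (-1.42) were lower, a share near the 11.4% of all genes, and the call of Cd36 was lost without JS9.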

How the data were processed

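RNA of sorted blood cells was made into libraries with SMART-Seq v4 and Nextera XT, per the labels' protocols. The authors deposited raw counts per gene, one column per library. The submitters' processing notes name HISAT2 2.1.0 and HTSeq 0.11.2, with a genome build of GRCm38. Whether counts used strand is not given in the sources used here. From the deposited counts, 39 pairs of repeat libraries were summed to samples, and 3 lines that name no gene were left out. Samples whose sex-linked or cell type genes went against their labels were left out of the main comparison. Genes were kept by edgeR's filterByExpr (minimum count 10, minimum total 15). edgeR 4.0.16 (R 4.3.3) scaled samples by TMM and tested CBM minus PBS in monocytes with a sex term (quasi-likelihood F test, Benjamini-Hochberg adjustment over all genes, threshold 0.05). A joint fit of the 3 cell types tested the monocyte difference minus the mean of the T and B cell differences. The interaction step was tested on simulated data of 19390 genes: it recovered 31 of 100 genes changed by a log2 of 1, 99 of 100 changed by 2, and called 7 of 19190 unchanged ones. The simulated batch shift was equal in the 3 cell types, with the same dispersion for all genes. The simulation therefore cannot show calls that come from a batch shift that differs by cell type. CPM is the count per 1000000 of a sample's total. Totals of 1.33 to 7.33 times 1000000 limit precision for low genes. Standard errors are those of the fit and include the spread between samples.

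The 12 higher and 12 lower genes described first had the lowest interaction p among genes past both tests, with a log2 difference of at least 1, at least 10 CPM, and a monocyte difference beyond that of T and of B cells. Predicted, pseudo, receptor-segment, olfactory and sex-linked genes were left out. Of shared genes 5 per direction, of opposed genes up to 4 per direction, and of each list up to 4 by monocyte p were named. List members named beyond these, and the neighbours of named genes, were chosen after their values were seen. Of the 124 libraries of the series, 23 belong to the 18 monocyte samples. The members and lists were chosen with earlier results of these data known. Alternatives used DESeq2 1.42.0 and limma 3.58.1, other filters, scalings, samples and references. CBM numbers recur across cell types and served as a block in 1 alternative, with each PBS sample a block of its own. Values of some list members are not reported here.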

Additional observations from a re-analysis of the deposited data

Results flagged for a closer look

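Among 184 sets of 5 PBS values examined for a sample far from the others, 16 had one, where chance gives about 1 in 20. Of these, 15 are given here. JS14 had the lowest total (1.33 times 1000000 counts), the most genes with at least 5 counts (15542), 2955.9 CPM in olfactory and vomeronasal receptor genes, 1.42% of counts in pseudogenes and a score of 71.8 on the first principal component. JS14 also stood apart for Zbtb46 (6.78 CPM), Cyba (612 CPM), Nfil3 (210 CPM) and mt-Nd1 (609 CPM). JS9 stood apart for Rhob (7.75 CPM) and Treml1 (60.8 CPM), JS6 for Siglech (0.617 CPM) and Tlr8 (64.8 CPM), JS3 for Ciart (7.87 CPM), and JS11 for H2-T23 (119 CPM).

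In 6 named genes the monocyte difference had the opposite sign to both lymphocyte differences, each past its own test, and the difference between cell types passed the interaction. The excess, on the log2 scale, was 2.06 for Ifngr2, 1.36 for Eif2a, -2.73 for Tiam2, -4.09 for Agap1, -4.61 for Lhx1 and -2.89 for Dmxl2. Against B cells alone, the excess of Lhx1 and of Dmxl2 did not pass.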

How the results depend on the processing

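The counts are given as genes past the monocyte test, the interaction and both, which were 3044, 494 and 196. Without CBM 10, CBM 11 and JS14, an alternative chosen after seeing the data, 4700 passed in monocytes and 373 both. DESeq2 gave 1166 for the interaction and 378 for both. With PBS and EtOH together as reference 362 passed both. Against B cells alone the interaction and both gave 155 and 75, against T cells alone 244 and 104, and in females only 86 and 51. limma voom with sample weights gave 5295, 2119 and 848. limma voom with the CBM number as a replicate block gave 329 for the interaction, and 277 with no block. The consensus correlation of the block was 0.12. Leaving out 1 sample at a time gave 2056 (without JS6) to 3895 (without CBM 11) in monocytes, 314 (without JS6) to 807 (without CBM 10) for the interaction and 107 (without JS11) to 274 (without CBM 11) for both. The causes were not tested. Other filters, DESeq2 size factors, a GC offset chosen after seeing the data, thinning, 1 library per sample, no sex term, doubtful samples and neutrophil terms kept each count within 1.5 times. Of the named genes whose values were recomputed under the alternatives, none turned its direction; genes named for comparison, such as Fos, Tnf and Cd74, were not recomputed. Treatment and batch coincide, so no within-batch value exists, and depth limits genes of a few CPM, Nr1d1 and Cenpt among them.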

Other observations

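Among myeloid transcription factors not described above, Klf2, which keeps monocytes quiescent, differed by -1.78, Id2 by -1.19 and Cebpa by -1.06 in monocytes, and Cebpe by 1.56 and Irf4 by 1.42. All 5 passed the edgeR monocyte test and none the interaction. Of the heat shock genes, Bag3, a co-chaperone, had a positive excess of 1.55 (edgeR adjusted p = 0.0205) with a monocyte difference of 0.44 that did not pass, and Hspa5, the chaperone of the endoplasmic reticulum, fell by 1.01. Of class I genes, H2-K1 differed by -1.18 and H2-T22 by 2.45, a call lost under 8 of 32 alternatives, among them without CBM 12, JS3, JS6 or JS9, with values down to 0.62. Igf1r (-1.59), Slc16a3 (-1.82) and Tlr6 (-1.54) had a negative excess past the interaction without passing in monocytes. That of Slc16a3 was lost under 14 of 36 alternatives, among them without CBM 1, CBM 5, CBM 7, CBM 8, CBM 9, JS6 or JS11, and that of Tlr6 under 7, among them without JS6 or JS11.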
